A study of Homo sapiens with 8 samples.

Results

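The proteasome genes of CEM, a human cell line from a T-cell acute lymphoblastic leukaemia, were examined in cultures that received an shRNA against ZMIZ1, a transcriptional coactivator, or a scrambled shRNA. The members are the genes whose single symbol in the deposited annotation begins with PSM, a letter from A to G and a digit; PSMC3IP, a recombination factor that only shares the prefix, was left out. These are 47 genes of the 20282 genes tested, covered by 88 of 54613 probe sets, and where a gene has several, the brightest on average was read. The control group held 4 cultures with scrambled shRNA and the knockdown group 4 cultures with the ZMIZ1 shRNA, all described as separate biological replicates without pairing, so that p-values measure the spread between these cultures of 1 line. The arrays were of the HG-U133 Plus 2.0 design of Affymetrix. All values are log2 values from RMA, and all differences are knockdown minus control on that scale. The labels name a single shRNA against ZMIZ1 and no rescue, so effects of ZMIZ1 loss and of the shRNA on other transcripts cannot be told apart.

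The proteasome is the protease that degrades proteins tagged with ubiquitin. Its core particle is a barrel of stacked alpha and beta rings, in which the beta subunits PSMB5, PSMB6 and PSMB7 carry the cutting sites. The regulatory particle caps the barrel: ATPases of the PSMC family unfold the substrate and thread it in, and PSMD subunits bind ubiquitin and remove it. In lymphoid cells and under interferon, PSMB8, PSMB9 and PSMB10 take the places of PSMB5, PSMB6 and PSMB7, which makes the immunoproteasome known for producing peptides for display on MHC class I.

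Constitutive and interferon-induced subunits are known to be switched on through different DNA elements, and the start regions of 6 genes are shown to place these. Searched on both strands were TGACNNNGC, the core of the antioxidant response element bound by NFE2L1 and NFE2L2, CCAAT, the box bound by NF-Y, and GAAA repeated after any 2 bases, an element of interferon regulatory factors. Shown first are 3 constitutive subunits and then 3 interferon-induced genes. The stretches come from RefSeq windows (GRCh38.p14) that run from 250 bases before to 50 bases after a gene start. Each stretch is given 5′ to 3′ on the strand of the gene. Capitals mark only the match chosen for display, and any other match stays in lower case. A match is a run of letters and not a measured binding site.
PSMD3: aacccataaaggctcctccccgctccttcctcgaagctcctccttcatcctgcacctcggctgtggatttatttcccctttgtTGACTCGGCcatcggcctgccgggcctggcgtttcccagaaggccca
PSMB3: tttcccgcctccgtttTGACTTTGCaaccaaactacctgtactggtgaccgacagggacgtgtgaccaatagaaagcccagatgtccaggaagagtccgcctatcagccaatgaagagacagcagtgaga
PSMB5: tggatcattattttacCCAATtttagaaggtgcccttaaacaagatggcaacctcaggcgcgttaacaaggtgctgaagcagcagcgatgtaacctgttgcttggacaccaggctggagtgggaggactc
PSMB8: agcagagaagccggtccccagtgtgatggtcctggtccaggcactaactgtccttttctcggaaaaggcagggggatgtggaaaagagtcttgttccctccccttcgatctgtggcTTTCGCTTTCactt
PSMB10: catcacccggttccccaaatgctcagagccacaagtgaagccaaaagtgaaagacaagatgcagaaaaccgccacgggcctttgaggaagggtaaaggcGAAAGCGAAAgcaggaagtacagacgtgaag
PSME2: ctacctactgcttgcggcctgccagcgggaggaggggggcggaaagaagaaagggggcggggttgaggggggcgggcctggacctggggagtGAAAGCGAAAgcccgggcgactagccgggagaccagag

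In PSMD3 (chr17:39980687-39980816, plus strand) and PSMB3 (chr17:38752621-38752750, plus strand) the capitals mark the antioxidant response core, which begins 37 and 104 bases before the start. The PSMB5 stretch (chr14:23035271-23035400, minus strand), from the more distal of its 2 windows, shows a CCAAT box that begins 164 bases before the start; the antioxidant response core was in neither window of PSMB5. In PSMB8 (chr6:32844038-32844167, minus strand), PSMB10 (chr16:67936841-67936970, minus strand) and PSME2 (chr14:24146601-24146730, minus strand) the capitals mark the interferon element, which begins 4, 21 and 28 bases before the start and lies on the opposite strand in PSMB8. The other window of PSMB8 did not hold this element.

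ZMIZ1 itself was 11.07, 11.18, 11.19 and 11.20 in the control arrays and 9.76, 9.95, 10.01 and 10.07 in the knockdown arrays, so that the groups did not overlap. Its difference was -1.21 ± 0.08 (SE; limma adjusted p = 6.57e-05; exact two-sided permutation p = 0.0286, the floor with 70 ways to assign the arrays). Within a group, pairs of arrays had a Pearson r of 0.992 to 0.997 over probe sets, as a description. The array's own 18S ribosomal RNA signal, the mean of 3 control probe sets, was 13.37, 13.24, 13.06 and 12.70 in the controls and 12.12, 11.67, 9.85 and 10.21 in the knockdown arrays (exact two-sided permutation p = 0.0286). Knockdown replicates 3 and 4 thus stood apart. The counts of genes that rose or fell were also made with the 18S signal as a covariate and with knockdown replicates 1 and 2 only. Those of genes without overlap were not. Of 9 T cell markers CD3E rose, CD1A fell and 7 did not pass. CD3D (13.41 in controls), CD3G (10.98) and LCK (10.63) were bright, while CD2 (4.02) and CD5 (5.70) were dim; the myeloid markers CD14, CSF1R, LYZ and CD68 lay between 4.16 and 5.93 in controls, and 0 of the 12 B cell, myeloid and fibroblast markers passed the test (limma; 0 with an unadjusted p under 0.05 and 0 with the equal-variance test). In bulk RNA fewer expressing cells and less RNA per cell cannot be told apart.

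Proteasome genes leaned higher in the knockdown cultures, by small amounts. Of the 47 genes, 12 rose, 1 fell and 34 did not pass the limma test (adjusted p under 0.05 over all genes). Among all genes, 13.5% rose and 6.51% fell, 20% in either direction; among the 3537 genes with a mean of at least 10, where 602 rose, the shares were 17% and 10.2%. The 12 rises ranged from 1.17-fold to 1.59-fold. A difference above 0 was measured in 40 of the 47 genes, against 56.2% of all genes and 56% of those with a mean of at least 10, and the median difference was 0.18, against 0.03 for all genes and 0.04 for those with a mean of at least 10. Without overlap of the groups, 24 members were higher and 2 were lower. Among all genes the shares were 16.5% and 8.69%. Of the 3537 genes with a mean of at least 10, 834 were higher and 509 were lower without overlap. Within the 47 members PSMD3 and PSMB5 had the largest rises, followed by PSMF1 and PSMG3, and the single fall was PSMB8. The classes were not tested against each other.

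With the 18S covariate 0 of the 47 genes passed with limma (5 had an unadjusted p under 0.05), where 0.197% of all genes rose and 0.261% fell. There the median difference was 0.14, against 0.01 for all genes and 0.04 for those with a mean of at least 10. In that fit 35 members were higher, against 52% of all genes and 2119 of the 3537 genes with a mean of at least 10. All 13 calls kept their sign, while the median standard error of the members grew from 0.0784 to 0.142. With knockdown replicates 1 and 2 only, PSMB5 and PSMD3 rose, 0 fell, and the background was 4.23% and 2.33%.

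**Figure D1:**
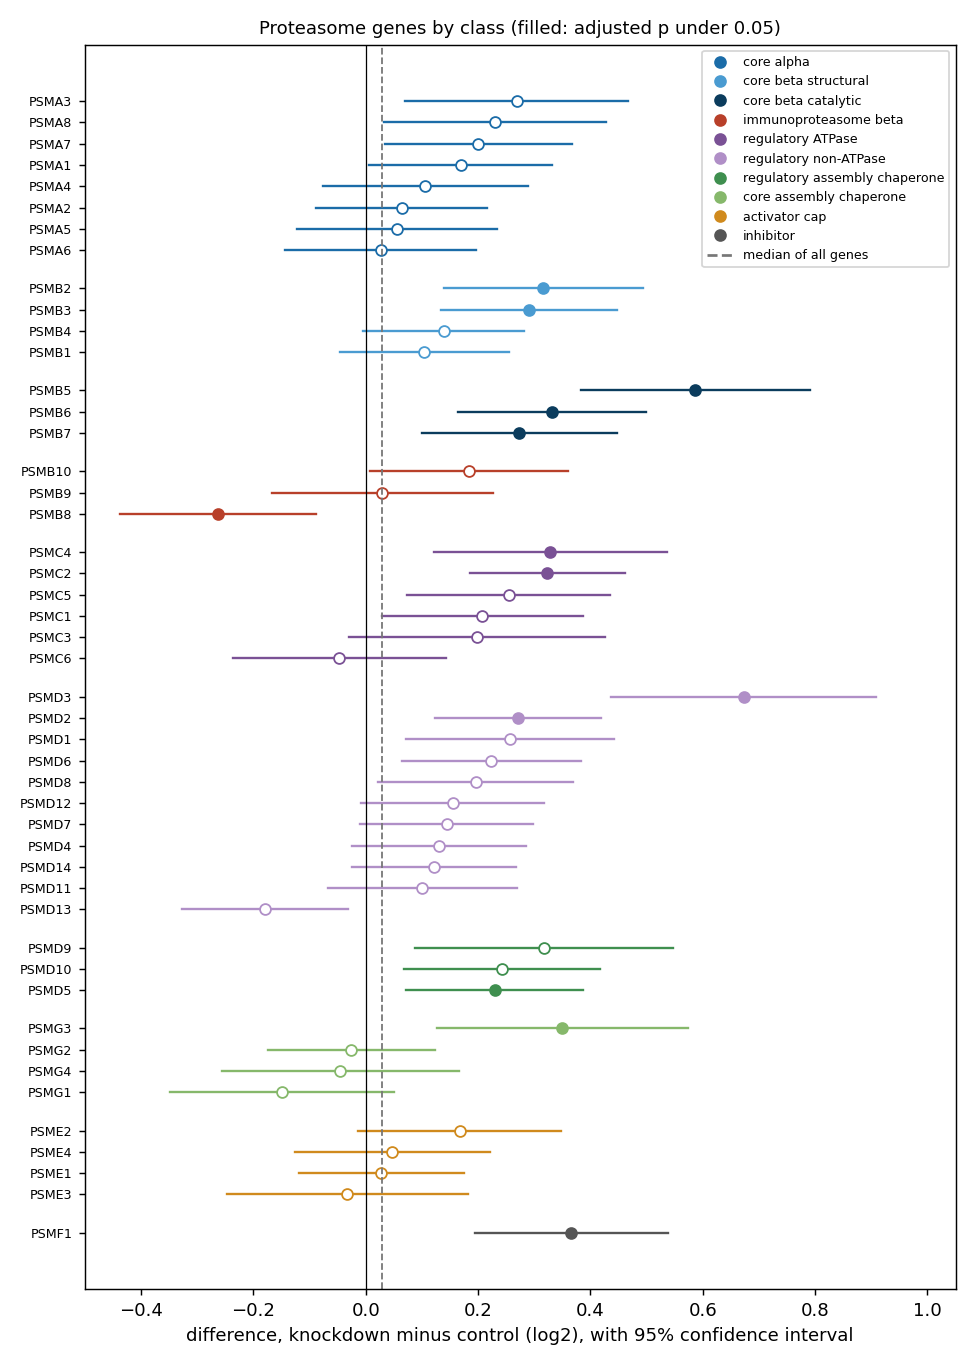
Differences of the 47 proteasome genes, knockdown minus control in log2 units on the x axis, by class on the y axis; bars are 95% confidence intervals, filled points passed the limma threshold, and the dashed line is the median of all genes (0.03). The 3 catalytic beta subunits are filled to the right of 0, and PSMB8 is the filled point to the left.

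The class means on each array show the core and the regulatory particle side by side. The mean of the 15 core particle subunits was 12.60, 12.53, 12.47 and 12.38 in the control arrays and 12.65, 12.67, 12.78 and 12.71 in the knockdown arrays. That of the 17 regulatory particle subunits was 11.76, 11.74, 11.68 and 11.64 in controls and 11.85, 11.87, 11.96 and 11.92 in knockdown arrays. For both, the lowest knockdown value lay above the highest control value. Among the controls the arrays with more 18S signal had the higher means, and among the knockdown arrays those with less 18S signal did, whereas the covariate fit takes a common slope for both groups. The 18S signal differs between the groups, so its part in the differences cannot be told apart from theirs. The mean of the 3 immunoproteasome subunits overlapped, at 10.88, 11.00, 10.91 and 10.83 in controls and 10.78, 10.85, 11.05 and 10.87 in knockdown arrays. The median differences were 0.20 for the core particle, 0.20 for the regulatory particle and 0.03 for the immunoproteasome subunits.

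**Figure D2:**
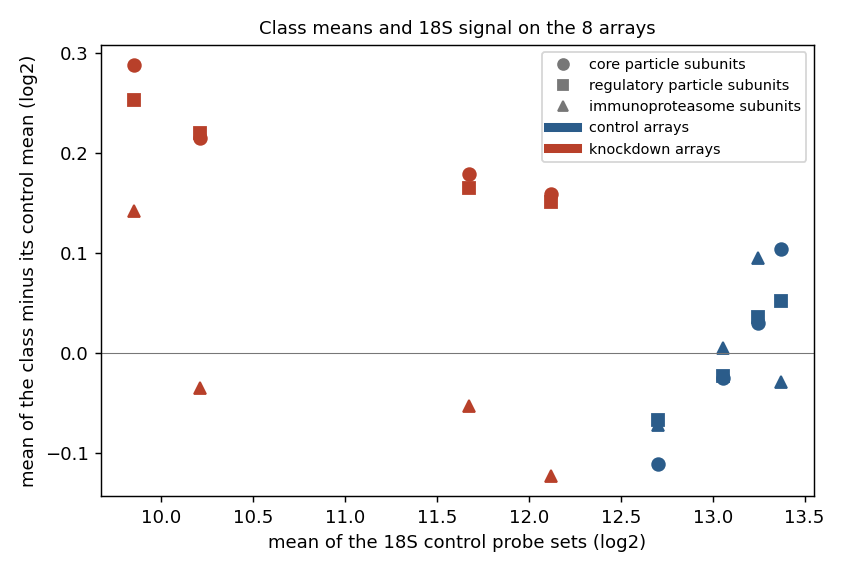
Mean of 3 classes on each array after subtraction of their control mean (y axis, log2), against the mean of the 18S control probe sets (x axis, log2); circles are the core particle, squares the regulatory particle and triangles the immunoproteasome subunits, blue in control and red in knockdown arrays. Core and regulatory particle lie above all controls in the 4 knockdown arrays, and knockdown replicates 3 and 4 have the lowest 18S signal.

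The 3 constitutive catalytic subunits all rose. PSMB5, which carries the chymotrypsin-like site and is the main target of the drug bortezomib, was 11.75, 11.60, 11.59 and 11.43 in the controls and 12.06, 12.14, 12.35 and 12.18 in the knockdown arrays. It was higher in every knockdown array and rose by 0.59 ± 0.09 (SE), or 1.5-fold (limma adjusted p = 0.0022), a call that held with each array left out. PSMB6, with the caspase-like site, was 12.98, 12.97, 12.90 and 12.83 in controls and 13.23, 13.16, 13.39 and 13.23 in knockdown arrays, without overlap. Its rise of 0.33 ± 0.08 (limma adjusted p = 0.0118) also held with each array left out. PSMB7, with the trypsin-like site, was 12.77, 12.70, 12.65 and 12.55 in controls and 12.88, 12.89, 13.07 and 12.92 in knockdown arrays. The groups again did not overlap, and PSMB7 rose by 0.27 ± 0.08 (limma adjusted p = 0.0326), but the adjusted p reached 0.0897 with an array left out, and only 2 of the 8 omissions (control replicate 1 and knockdown replicate 1) kept the call.

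None of their immunoproteasome counterparts (PSMB8, PSMB9 and PSMB10) rose. PSMB8, which replaces PSMB5, was 11.15, 11.25, 11.08 and 11.07 in controls and 10.77, 10.88, 11.01 and 10.84 in knockdown arrays, lower in every knockdown array. It fell by 0.26 ± 0.08 (SE; limma adjusted p = 0.0389). PSMB9, which replaces PSMB6, was 10.89, 11.14, 11.08 and 10.99 in controls and 10.92, 11.00, 11.23 and 11.08 in knockdown arrays. Its groups overlapped, with a difference of 0.03 (95% confidence interval -0.17 to 0.23, limma adjusted p = 0.856). PSMB10, which replaces PSMB7, was 10.58, 10.61, 10.57 and 10.44 in controls and 10.66, 10.68, 10.90 and 10.69 in knockdown arrays. The groups of PSMB10 did not overlap, but its difference of 0.18 did not pass (limma adjusted p = 0.137). The call of PSMB8 ended with 6 of the 8 arrays left out (adjusted p up to 0.101), remaining without control replicate 4 or knockdown replicate 3, and it ended with the equal-variance test (0.0503) and with the 18S covariate, where PSMB8 differed by -0.37 (0.262).

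Taken within each array, which removes any shift common to both probe sets, PSMB5 moved away from PSMB8. With the control mean set to 0, PSMB5 minus PSMB8 was 0.14, -0.10, 0.06 and -0.10 in controls and 0.83, 0.80, 0.89 and 0.88 in knockdown arrays. The 4 knockdown values, 0.85 ± 0.04 (SD, n = 4) or a 1.80-fold change of the ratio, were all above every control value, and were lower in knockdown replicates 1 and 2 (0.83 and 0.80) than in replicates 3 and 4 (0.89 and 0.88), the arrays with the least 18S signal. PSMB6 minus PSMB9 was 0.19, -0.06, -0.08 and -0.05 in controls and 0.41, 0.27, 0.26 and 0.26 in knockdown arrays, which did not overlap. PSMB7 minus PSMB10 was 0.08, -0.02, -0.04 and -0.01 in controls and 0.10, 0.10, 0.05 and 0.11 in knockdown arrays, which overlapped. The order of the change in ratio was thus PSMB5, PSMB6, PSMB7, and the pairs were described without a test.

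**Figure D3:**
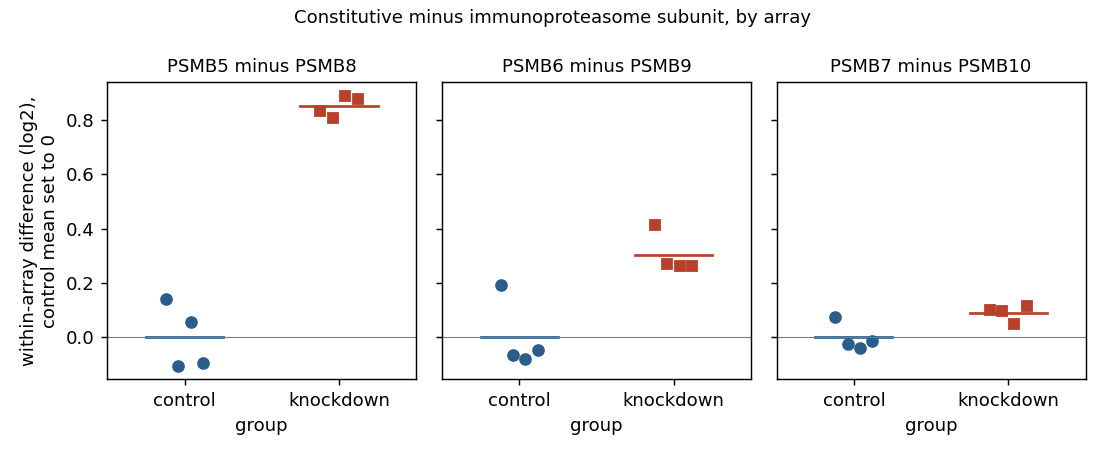
Each constitutive catalytic subunit minus the immunoproteasome subunit that replaces it, within each array and with the control mean set to 0 (y axis, log2), for 4 control and 4 knockdown arrays (x axis); lines are group means. The knockdown mean is 0.85 for PSMB5 minus PSMB8, 0.30 for PSMB6 minus PSMB9 and 0.09 for PSMB7 minus PSMB10.

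Among the structural beta subunits, which have no cutting site, 2 of 4 rose. PSMB2 was 13.02, 13.08, 12.93 and 12.82 in controls and 13.21, 13.24, 13.37 and 13.30 in knockdown arrays and rose by 0.32 ± 0.08 (SE; limma adjusted p = 0.0192). PSMB3 was 13.09, 13.05, 13.04 and 12.96 in controls and 13.26, 13.27, 13.42 and 13.36 in knockdown arrays and rose by 0.29 ± 0.07 (adjusted p = 0.0164). Neither overlapped between groups. Another probe set of PSMB2, with a mean of 8.40, differed by -0.02 (limma adjusted p = 0.907 over all probe sets). PSMB1 (0.10) and PSMB4 (0.14) were higher in every knockdown array and did not pass, although the second probe set of PSMB4 rose by 0.33 (limma adjusted p = 0.0230 over all probe sets). Omission of control replicate 3 or of knockdown replicates 3 or 4 ended the call of PSMB2 (adjusted p up to 0.0587), as omission of knockdown replicate 4 did for PSMB3 (0.0506).

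The alpha ring, which forms the gate of the barrel, held 0 calls among 8 genes with limma, although all 8 differences were above 0; 4 had an unadjusted p under 0.05 and 0 passed the equal-variance test. PSMA3 (0.27, limma adjusted p = 0.0587), PSMA7 (0.20) and PSMA1 (0.17) were the highest of those found in somatic proteasomes. PSMA2 (0.06), PSMA4 (0.11), PSMA5 (0.06) and PSMA6 (0.03) lay closer to the median of all genes, and PSMA8, known as a testis form of PSMA7, was dim (6.96 ± 0.15 in controls, SD, n = 4) with a difference of 0.23. Dimmer probe sets of PSMA1 (0.35), PSMA2 (0.30) and PSMA7 (0.32) rose (limma adjusted p = 0.0209, 0.0354 and 0.0338 over all probe sets), so the count of 0 rests on the choice of the brightest probe set.

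In the regulatory particle, PSMD3, a scaffold subunit of the lid, showed the largest difference of the 47 genes. It was 10.10, 10.32, 10.11 and 10.24 in controls and 10.70, 10.68, 11.07 and 11.02 in knockdown arrays, without overlap and highest in knockdown replicates 3 and 4. It rose by 0.67 ± 0.11 (SE), or 1.59-fold (limma adjusted p = 0.00226), with each array left out as well; with the 18S covariate its difference was 0.29. PSMD2, the large base subunit that docks ubiquitin receptors, was 11.44, 11.27, 11.35 and 11.36 in controls and 11.59, 11.63, 11.63 and 11.65 in knockdown arrays. It did not overlap and rose by 0.27 ± 0.07 (limma adjusted p = 0.0174), a call lost on omission of control replicates 2 or 3 or of knockdown replicate 4 (adjusted p up to 0.0520).

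Of the 6 ATPases of the base, 2 rose. PSMC2 was 12.78, 12.78, 12.80 and 12.79 in controls and 13.08, 13.11, 13.16 and 13.10 in knockdown arrays, with the smallest standard error of the called genes. It rose by 0.32 ± 0.06 (SE; limma adjusted p = 0.00552) with each array left out, and its other probe sets rose by 0.41 and 0.67. PSMC4 was 11.68, 11.83, 11.58 and 11.60 in controls and 11.83, 11.93, 12.11 and 12.14 in knockdown arrays. Control replicate 2 reached knockdown replicate 1, so the groups of PSMC4 overlapped; it rose by 0.33 ± 0.09 (limma adjusted p = 0.0322), but the call ended with 5 of the 8 arrays left out (control replicates 1, 3 and 4 and knockdown replicates 3 and 4; up to 0.0964). PSMC5 (0.25, adjusted p = 0.0502), PSMC1 (0.21) and PSMC3 (0.20) did not pass, and PSMC6 had a difference of -0.05.

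The remaining lid and base subunits did not pass. PSMD1 (0.26, limma adjusted p = 0.0538), PSMD6 (0.22, 0.0514) and PSMD8 (0.20, 0.108) came closest among those that were higher. PSMD14, the deubiquitinase of the lid, had a difference of 0.12, the ubiquitin receptor PSMD4 0.13, PSMD7 0.14, PSMD11 0.10 and PSMD12 0.15. PSMD13, a lid subunit, was the only one lower in every knockdown array, at 11.43, 11.51, 11.43 and 11.36 in controls and 11.27, 11.22, 11.29 and 11.22 in knockdown arrays (-0.18, adjusted p = 0.0863). Other probe sets of PSMD12 (0.55) and PSMD7 (0.66, at a mean of 6.30) rose (limma adjusted p = 0.0121 and 0.00232 over all probe sets). Further ones of PSMD1 (-0.17, at a mean of 11.03), PSMD11 (-0.15), PSMD13 (-0.27) and PSMD7 (-0.31, at a mean of 6.63) were lower and did not pass. Bright further ones of PSMD4 (0.01 and 0.10) did not pass either.

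**Figure D4:**
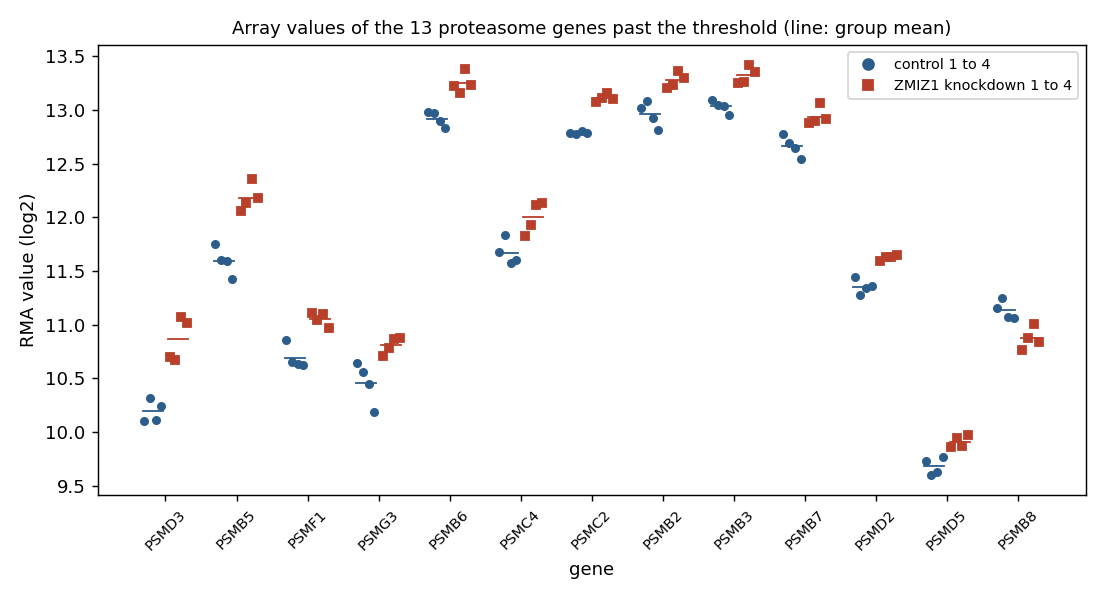
RMA values (y axis, log2) of the 13 proteasome genes past the threshold on the 4 control arrays (blue) and the 4 knockdown arrays (red), ordered by difference on the x axis; lines are group means. Knockdown points lie above all control points in 11 genes and below them in PSMB8, and the groups touch in PSMC4.

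The chaperones that assemble the particle were mixed. PSMG3, part of a heterodimer with PSMG4 that guides the alpha ring, was 10.64, 10.56, 10.45 and 10.19 in controls and 10.71, 10.78, 10.86 and 10.88 in knockdown arrays. It did not overlap and rose by 0.35 ± 0.10 (SE; limma adjusted p = 0.0340), but the call held in only 3 of the 8 omissions of an array (lost on omission of control replicates 3 or 4, or of knockdown replicates 2, 3 or 4; highest adjusted p 0.0933). Its partner PSMG4 (-0.04) and the other alpha ring chaperones PSMG1 (-0.15) and PSMG2 (-0.03) did not pass. Among the chaperones of the base, PSMD5 was 9.73, 9.60, 9.62 and 9.77 in controls and 9.86, 9.94, 9.87 and 9.97 in knockdown arrays. It rose by 0.23 ± 0.07 (limma adjusted p = 0.0447), near the threshold, and passed only without control replicate 4 among the 8 omissions (adjusted p up to 0.123). PSMD9 (0.32, adjusted p = 0.0551) and PSMD10, also known as gankyrin (0.24, 0.0543), were higher in every knockdown array and did not pass.

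Of the alternative caps and the inhibitor, PSMF1 was the one that passed. PSMF1, which inhibits the isolated core particle, was 10.86, 10.65, 10.63 and 10.62 in controls and 11.11, 11.04, 11.10 and 10.97 in knockdown arrays. It did not overlap and rose by 0.37 ± 0.08 (SE; limma adjusted p = 0.00867), with each array left out. PSME1, whose product forms an interferon-induced cap with that of PSME2, was 12.47, 12.58, 12.53 and 12.51 in controls and 12.49, 12.52, 12.59 and 12.60 in knockdown arrays. PSME2 was 12.71, 12.71, 12.67 and 12.49 in controls and 12.70, 12.78, 12.94 and 12.83 in knockdown arrays. Both overlapped, with differences of 0.03 and 0.17 (limma adjusted p = 0.818 and 0.185). The nuclear cap PSME3 was 10.13, 9.97, 9.81 and 9.67 in controls and 9.88, 9.85, 9.83 and 9.89 in knockdown arrays, a difference of -0.03. Its probe sets disagreed: the next brightest had a difference of -0.07, while the others rose by 0.69 and 0.52 (limma adjusted p = 0.0195 and 0.0249 over all probe sets). PSME4, a cap of nuclear proteasomes, had a difference of 0.05. A probe set of PSME4 with a mean of 6.91 differed by -1.19 without passing (0.0529 over all probe sets), and its values were 7.33, 6.84, 5.32 and 5.75 in the knockdown arrays, lowest where the 18S signal was lowest.

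Over all 41 further probe sets of the members, 26 had a mean of at least 6, of which 11 rose and 0 fell (limma adjusted over all probe sets). Among the 15 dimmer ones 0 rose and 2 fell. Of all probe sets, 8.38% rose and 5.52% fell. That background was not limited to a mean of at least 6, and the array medians were 5.15 to 5.20, so the shares are not matched for brightness. With the 18S covariate the lowest adjusted p of the 41 was 0.0698 (limma, over all probe sets), for a probe set of PSMD7. The brightest probe set of 21 members carries the _s_at or _x_at suffix of the manufacturer, which marks probes shared between transcripts. In the authors' deposited table, PSMB5 (ratio 1.5, p = 0.000671) and PSMD3 (ratio 1.59, p = 0.00116) were the 2 members past the authors' limit of p under 0.01 and a 1.3-fold difference.

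Proteins that work with the proteasome moved in part. Of 26 partners, 8 rose and 1 fell (limma), against 13.5% and 6.51% of all genes. Among genes with a mean of at least 10 the shares were 17% and 10.2%. The median difference of the partners was 0.07, against 0.03 for all genes and 0.04 for those with a mean of at least 10. ADRM1, a ubiquitin receptor of the regulatory particle, was 10.13, 10.54, 10.13 and 10.09 in controls and 10.73, 10.70, 11.06 and 10.98 in knockdown arrays, without overlap, and rose by 0.65 ± 0.12 (SE; adjusted p = 0.0049). UBE3C, a ligase bound to the proteasome, rose by 0.60 (adjusted p = 0.00115), NPLOC4, a cofactor of the unfoldase VCP, by 0.53, and ZFAND2A, an arsenite-inducible proteasome partner, by 0.53. These 4 calls held with each array left out.

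NFE2L1 encodes the transcription factor that induces proteasome genes when proteasome activity is short. NGLY1 and DDI2 encode enzymes that process the NFE2L1 protein. NFE2L1 was 9.87, 9.88, 9.95 and 9.96 in controls and 10.10, 10.19, 10.44 and 10.45 in knockdown arrays. It did not overlap and rose by 0.38 ± 0.09 (SE; limma adjusted p = 0.0165; 0.0539 without knockdown replicate 4), and with the 18S covariate NFE2L1 differed by 0.04. NGLY1 was 11.37, 11.24, 11.41 and 11.42 in controls and 11.11, 11.04, 10.90 and 10.92 in knockdown arrays. It fell by 0.37 ± 0.08 (limma adjusted p = 0.00895), again without overlap, while DDI2 had a difference of -0.04. POMP, which matures the core particle, had a difference of 0.18 (limma adjusted p = 0.158). Of 6 genes of ubiquitin supply and activation 0 passed with limma, 0 had an unadjusted p under 0.05 and 0 passed the equal-variance test.

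PSMB8 and PSMB9 lie on chromosome 6 in the order TAP2, PSMB8, TAP1, PSMB9 among protein-coding genes of RefSeq (GRCh38.p14), where TAP1 and TAP2 encode the transporter that carries peptides to MHC class I. TAP2 was 9.70, 9.54, 9.50 and 9.64 in controls and 8.90, 8.97, 9.04 and 9.06 in knockdown arrays. It did not overlap and fell by 0.60 ± 0.08 (SE; limma adjusted p = 0.000814). TAP1 had a difference of -0.18 (adjusted p = 0.105) and PSMB9 one of 0.03, so the 4 neighbours did not move alike. Of 16 interferon-responsive genes of antigen processing 4 rose and 3 fell, against 13.5% and 6.51% of all genes, with a median difference of 0.00. The falls were GBP1, a guanylate-binding protein (-0.97, adjusted p = 0.000418), TAP2 and the MHC class I transactivator NLRC5 (-0.45, dim at 5.24 in controls). TAPBP (0.53) and HLA-B (0.38) rose, with differences of -0.06 and 0.02 with the 18S covariate, and the HLA-B probe set may share probes with related genes. Both calls were lost on omission of control replicates 1 or 3 or of knockdown replicates 3 or 4, and that of HLA-B without control replicate 4 (adjusted p up to 0.117).

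The promoter windows of RefSeq matched 41 of the 47 genes. The antioxidant response core, printed for PSMD3 and PSMB3, was found in 15 of the 41 genes (36.6%) against 16.1% of the 27305 genes in the table, in 4 of the 9 matched genes that rose and in 11 of the 31 that did not pass (35.5%). CCAAT, marked in capitals for PSMB5, was found in 19 (46.3%) against 39.7%. It was in 5 of the 9 that rose and in 14 of the 31 that did not pass. The interferon element was found in 7 (17.1%) against 4.38%, in 0 of the 9 that rose and in 6 of the 31 that did not pass. Its holders were PSMB8, PSMB10, PSME1 and PSME2 and also PSMB4, PSMG4 and PSMA4, which are not known as interferon-induced subunits, while interferon-induced PSMB9 held none. PSME1 and PSME2 held the antioxidant response core as well, so the elements did not divide the genes cleanly. Of the 3 interferon-induced genes with a printed stretch, PSMB8 fell and PSMB10 and PSME2 did not pass. Genes with the antioxidant response core did not all move alike, since PSMD3 (0.67) and PSMB3 (0.29) rose while PSMG1 (-0.15), PSMG2 (-0.03) and PSMB9 (0.03) did not pass.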

How the data were processed

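RNA from 4 control and 4 ZMIZ1 knockdown cultures was measured on 8 arrays, from 250 ng of total RNA each, per the labels' protocols. The deposited values are log2 values per probe set made with RMA by the authors, per the file headers and the submitters' processing notes; the sources used here do not give its version. The log2 values in the authors' workbook differ from the value table by at most 5.0e-09; its p-value, from a 2-sample test, and its ratio of knockdown over control were deposited by the authors beside the annotation. Precision is set by the number of arrays, which hold no counts.

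Differences were fitted with lmFit and eBayes of limma 3.58.1 (R 4.3.3), with two-sided p-values and 6 residual degrees of freedom, on 54613 probe sets, after removal of 62 control probe sets. Each of 20282 genes with a single symbol was represented by its brightest probe set, and Benjamini-Hochberg adjustment was made over these genes, or over all probe sets where stated; the threshold was 0.05. Symbols were updated through the gene ID for 40270 of 41479 probe sets with 1 symbol. The fit was tested on simulated data. The members, gene lists and motifs were chosen with earlier results of these data known. Each member is named once; array values are given for those past the threshold, for PSMB5 to PSMB10 and for PSME1 to PSME3, and at most 6 called genes per other list are named, with NFE2L1 and POMP. DDI2, TAP1 and the cell type markers were named in addition, after their values were seen. PSMB11 had no probe set under the rule. A gene named by the rule among the interferon-responsive genes is not reported here. Alternatives were a replicate block, a mean-variance trend, array weights, an equal-variance test, centring of arrays, the 18S covariate, the mean of all probe sets, removal of _s_at and _x_at probe sets or of dim genes (under 6), and omission of each array.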

Additional observations from a re-analysis of the deposited data

Results flagged for a closer look

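In 7 of 122 groups of 4 arrays, taken over the 61 named genes, the highest or lowest array stood apart from the other 3 by more than Dixon's 95% critical value for 4 samples; chance flags about 1 in 20 groups, or 6.1 here. Among the controls these were replicate 1 of PSMA8 (7.19, others 6.87 to 6.90) and of PSMF1 (10.86, others 10.62 to 10.65), replicate 2 of ADRM1 (10.54, others 10.09 to 10.13) and replicate 4 of POMP (12.71, others 12.93 to 12.97). Among the knockdown arrays they were replicate 3 of PSMB10 (10.90, others 10.66 to 10.69) and of PSMB4 (13.50, others 13.46), and replicate 2 of GBP1 (7.89, others 7.59 to 7.64).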

How the results depend on the processing

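The 12 rises among the proteasome genes became 5 with the replicate block, 19 with the mean-variance trend, 21 with array weights, 19 with arrays centred on their median and 0 with the 18S covariate. They were 2 with knockdown arrays 1 and 2 only, and 18 with the variance prior taken from 1 probe set per gene; both of these were chosen after seeing the data. The single fall, PSMB8, became 0 with the replicate block, centred arrays, the 18S covariate, removal of _s_at and _x_at probe sets (PSMB8 then has no probe set) and knockdown arrays 1 and 2 only, and the falls were 2 (PSMB8 and PSMD13) with array weights and with the mean of all probe sets. The equal-variance test gave the same counts, 12 and 1, with other genes: PSMB8, PSMC4 and PSMG3 were lost (adjusted p = 0.0503, 0.0711 and 0.0835), and PSMB4, PSMD6 and PSMD13 were gained, the last as the fall. With single arrays left out, rises ranged from 5 (without knockdown replicate 4) to 17 (without control replicate 1), with 6 without control replicate 3 and 7 without knockdown replicate 3; falls ranged from 0 to 1. Of the 13 called genes, 5 (PSMB5, PSMB6, PSMC2, PSMD3 and PSMF1) passed with each array left out. The replicate numbers did not pair the arrays (correlations of deviations from -0.09 to 0.06), not every array correlated best with its own number, and the same 5 genes passed with the block. PSMB2 was -0.0010 without _s_at and _x_at probe sets, where a dim probe set remained, and TAPBP was -0.0602 with the 18S covariate.

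The median of the core particle ranged from 0.17 to 0.25 and that of the regulatory particle from 0.17 to 0.23 with single arrays left out, and that of the immunoproteasome subunits from -0.03 to 0.08; it was -0.20 with the 18S covariate. The 9 calls among partners became 0 with the 18S covariate, 1 with knockdown arrays 1 and 2 only, and 5 (without knockdown replicate 4) to 9 with single arrays left out. The 7 calls among interferon-responsive genes became 11 with array weights, 0 with the 18S covariate, 4 with the mean of all probe sets, 4 without _s_at and _x_at probe sets, 2 with knockdown arrays 1 and 2 only, and 3 (without control replicate 3 or knockdown replicates 3 or 4) to 6 with single arrays left out. ZMIZ1 ranged from -1.25 to -1.15 and the 18S difference, -2.13 over all arrays, from -2.52 to -1.76 (exact permutation p from 0.0286 to 0.0571), and the causes were not tested. Differences as small as those of most members lie near what 4 arrays per group can call.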
